A study of Mus musculus with 2 samples.

Results

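The HoxC cluster of mouse chromosome 15 was described in a PHF19 chromatin immunoprecipitation with sequencing (ChIP-seq) experiment. Its members are the 28 deposited PHF19 peaks, of 3445 in all, that overlap chromosome 15, 102680000 to 102900000 (mm8), a window taken to hold Hoxc4, Hoxc5, Hoxc6, Hoxc8, Hoxc9, Hoxc10, Hoxc11, Hoxc12 and Hoxc13. The cells were E14, a mouse embryonic stem cell line, cultured on gelatin-coated plates with the cytokine LIF, which keeps them undifferentiated. One group was chromatin recovered with a custom rabbit polyclonal antibody against PHF19 (1 library), and the other was input DNA without immunoprecipitation (1 library). The labels name no mutation or treatment in either, and no control for the specificity of the antibody was used here. No expression was measured, so the cell type label could not be set against marker genes.

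Hox genes encode homeodomain transcription factors that give cells their position along the body axis. In embryonic stem cells they are held silent by Polycomb complexes, among them PRC2, which methylates lysine 27 of histone H3 over broad stretches of a Hox cluster. PHF19 is a Polycomb-like protein that associates with PRC2, and proteins of its family bind unmethylated CG-rich DNA. Within the cluster, Hoxc13 acts in hair and nail formation, Hoxc10 in hindlimb-level motor neurons, Hoxc9 in thoracic motor neurons, and Hoxc8 and Hoxc6 in the thoracic skeleton and forelimb-level neurons. Hoxc4 and Hoxc5 are expressed further towards the head. RefSeq's GRCm38.p6 gene table, used here only for names and neighbours, lists Hoxc13 first and Hoxc4 last. Between them stand the long non-coding RNA gene Hotair, after Hoxc12, and the microRNA genes Mir196a-2, between Hoxc10 and Hoxc9, and Mir615, listed after Hoxc5. The deposited coordinates are mm8 and no annotation of that build was used, so the peaks are given by position and number, not by gene.

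The sequences at hand from the cluster are shown for context only, since no position of the files was matched to them. They come from RefSeq, build GRCm38.p6, whose coordinates do not match those of the peaks. The Hoxc4 promoter stretch, the 250 bases before the annotated start (chr15:103034145-103034394, plus strand), is printed with CG pairs in capitals:
Hoxc4: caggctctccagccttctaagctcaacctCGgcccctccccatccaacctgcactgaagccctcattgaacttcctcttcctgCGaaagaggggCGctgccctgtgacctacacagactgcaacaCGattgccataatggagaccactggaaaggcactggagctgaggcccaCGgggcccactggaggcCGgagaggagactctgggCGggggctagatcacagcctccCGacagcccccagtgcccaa
This stretch holds 8 CG pairs, and the full 300 bases of the RefSeq window, which run 50 bases past the start, hold 9. The median over all 32851 promoter windows was 7 pairs. Of the other 30 Hox genes, 21 had an entry, with 23 windows of 4 to 45 CG pairs and a median of 15. The motif GCG, read on both strands, so counted as GCG or CGC with overlaps, occurred 4 times in the Hoxc4 window. At least 1 occurrence was found in 80.7% of all windows. The median was 4 over all windows and 12 (range 0 to 46) in those of the other Hox genes. For Mir196a-2 and Mir615, 1 mature microRNA each is printed here and another is left out. The seed, bases 2 to 8, is in capitals (chr15:102973365-102973386 and chr15:103014969-103014990, both plus strand):
mmu-miR-196a-5p: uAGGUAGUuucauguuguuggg
mmu-miR-615-3p: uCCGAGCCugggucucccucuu
miR-196a is known to target Hox messenger RNAs.

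The ChIP library held 21957101 distinct reads and the input 24496988. A typical 1 kb bin of chromosome 15 held 8 ChIP and 9 input reads (medians). With 1 library per group there is no replicate error: each test compares the reads of these libraries, not conditions, and intervals cover counting error only. Amplified reads carry no molecular identifiers, so these intervals may be too narrow.

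The HoxC window held a broad enriched domain, with ChIP reads at the level of the input before it on the Hoxc13 side and further peaks beyond it on the Hoxc4 side. Of the 28 peaks, 24 formed a run from 102737903 to 102844382, 106.5 kb long, called the HoxC domain here. The other 4 lay beyond it on the Hoxc4 side, and none lay before it. Across the domain the ChIP library had 3337 reads and the input 1159, a fold of 3.21 (3.00 to 3.44). The peaks that define it were called on these same reads, so a higher fold inside than outside was partly built in. In the 57.9 kb of the window before the domain, the 613 ChIP and 663 input reads gave 1.03 (0.923 to 1.15), so the ChIP stood at the input's level there. In the 55.62 kb after it, 895 and 632 reads gave 1.58 (1.43 to 1.75), peaks included. Input density hardly differed between these stretches, at 10.88 reads per kb in the domain, 11.45 before it and 11.36 after it.

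**Figure D1:**
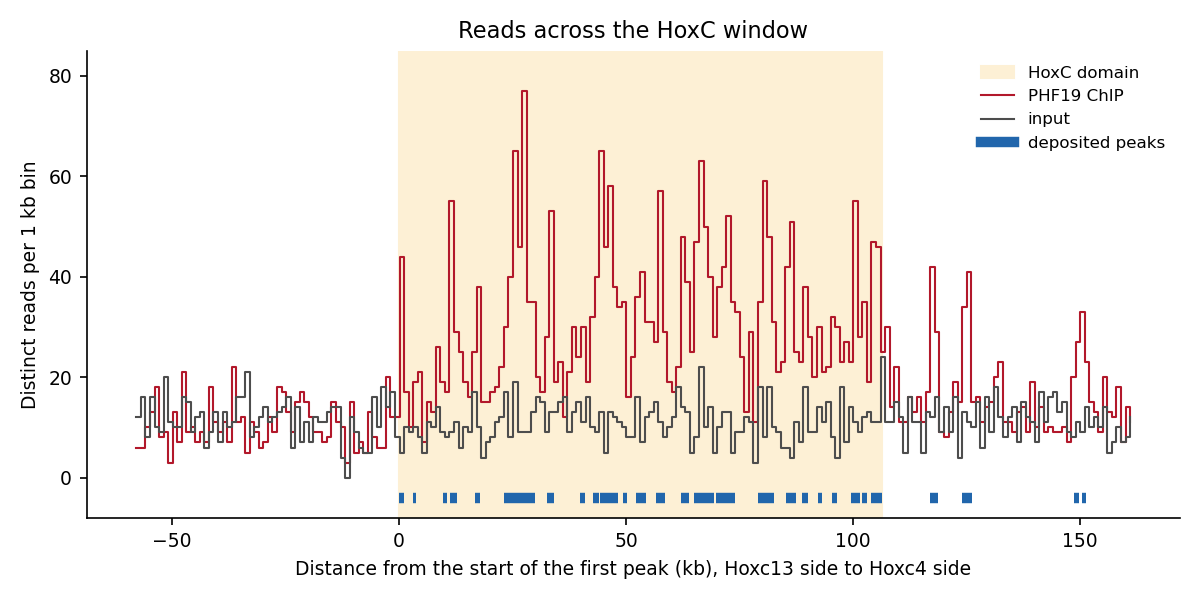
Distinct reads per 1 kb bin (vertical axis) for the PHF19 ChIP (red) and the input (grey) against the distance from the start of the first peak in kb, with the domain shaded and the deposited peaks as blue bars. The ChIP rises above the input at the first peak, reaches 77 reads in 1 bin, and stays above the input in nearly every bin of the domain, while the input stays flat.

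Bins of 1 kb, which do not depend on the deposited peaks, showed where this signal lay. Of 219 bins tested in the window, 42 were called higher in the ChIP (exact one-sided conditional binomial test, adjusted over all bins, fold of at least 2), against 0.157% of bins in the genome. These 42 bins were 27.8% of the 151 called on chromosome 15, where 28 of the 140 deposited peaks are members. All 42 touched a deposited peak, and 39 of them lay in the domain. They touched 21 of the 28 peaks; since the authors called those peaks on the reads counted here, the overlap is no independent evidence. The longest unbroken series of called bins ran for 13 bins, from 102800001 to 102813000, beyond the middle of the domain towards the Hoxc4 end. The bin with the most ChIP reads began at 102765001, with 77 ChIP against 9 input reads, or 9.54 (4.78 to 21.7; adjusted p = 6.81e-12, exact test). The largest fold was in the bin from 102824001, where 51 ChIP and 4 input reads gave 14.2 (5.23 to 54.2; adjusted p = 6.34e-09, exact test).

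Nearly the whole domain lay above the input. Of its 108 bins, 107 had a fold above 1, against 26 of the 57 bins on the Hoxc13 side and 44 of the 55 on the Hoxc4 side. The median fold of a bin was 3.02 in the domain, 0.944 on the Hoxc13 side and 1.59 on the Hoxc4 side. The 1 exception, the bin from 102774001, held 12 ChIP and 16 input reads (0.837, 0.361 to 1.89) and lay in the second-longest gap. After it, 83 bins in a row, from 102775001 to 102858000, had folds above 1. The domain was drawn from peaks called on these same reads, and 73 of its 108 bins touch one. A higher count and median than in the flanks was therefore partly built in. The 35 domain bins that touch no peak had a median fold of 2.12.

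All 28 peaks were called enriched at a fold of at least 2 (exact two-sided conditional binomial test, adjusted over all peaks), which says little, since 98.5% of all deposited peaks were. At a fold of at least 4, 13 of the 28 were called, all in the domain, against 40.6% of all peaks. The members together held 2409 ChIP against 629 input reads, a fold of 4.27 (3.91 to 4.67). Their median fold was 3.84, beside 3.68 over all peaks, whose quartiles were 2.93 and 4.70. The median width was 1516 bp, beside 1425 bp. ChIP density was also close to that of other peaks, with medians of 39.4 and 39.3 reads per kb. By these medians the HoxC peaks lay near the middle of the list. By the authors' score, 10 members stood in the top 25% of the list and 8 in the bottom 25%.

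A few broad peaks carried much of the signal. The 5 widest spanned 23.06 of the 56.37 kb covered by all 28 and held 1094 ChIP reads, 45.4% of those in the members. The widest, peak 6 (102761002 to 102767819, 6818 bp), had 324 reads in the ChIP and 82 in the input, a fold of 4.41 (3.45 to 5.69; adjusted p = 1.80e-39, exact test), and also the highest score of the window, rank 62 of 3445. Peak 10 (102782271 to 102786198) had 217 and 45 reads and a fold of 5.38 (3.89 to 7.59), at rank 96. Peak 15 (102802795 to 102807226) had 219 and 56 reads, or 4.36 (3.24 to 5.96), and its neighbour, peak 16 (102807689 to 102812033), had 174 and 42 reads, or 4.62 (3.28 to 6.64). These 2 lay 462 bp apart, inside the longest series of called bins. Peak 17 (102817061 to 102820593) had 160 and 49 reads, a fold of 3.64 (2.63 to 5.13). The intervals of all 5 overlapped. No test between these peaks was run, and overlap does not show that their folds are equal.

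The largest folds belonged to peaks with little input, 2 of them at the very start of the domain. Peak 1, the first of the window and of the domain (102737903 to 102739057), had 46 ChIP against 5 input reads, giving a fold of 10.3 (4.09 to 33.1; adjusted p = 7.27e-10, exact test). Peak 2 (102740970 to 102741559), the narrowest at 590 bp, had 18 and 2 reads, a ratio of 10.04 (2.40 to 89.2). Input density in these was 0.481 and 0.377 times the chromosome's median per kb. Their ChIP density was not exceptional, at 39.8 and 30.5 reads per kb, within the members' range of 29.2 to 55.2. Peak 18 (102823132 to 102825460) had 103 and 13 reads, a fold of 8.84 (4.95 to 17.2; adjusted p = 6.27e-20, exact test), at 0.620 times the median input. Peaks 4 (102749051 to 102750598) and 13 (102794574 to 102796420) followed with 73 and 84 ChIP reads against 13 and 15 input reads, folds of 6.27 (3.44 to 12.3) and 6.25 (3.58 to 11.7). Across the 28 peaks, fold went with low input density (Spearman's rho -0.69) and less with high ChIP density (0.51). Both are descriptions over peaks that share the same libraries, and fold contains both densities. Over all 3445 peaks the same values were -0.81 and 0.25.

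Of the 5 smallest folds, 2 were at peaks inside the domain and 3 at peaks beyond it. Peak 19 (102826619 to 102828070) had 48 ChIP against 21 input reads, giving a fold of 2.55 (1.498 to 4.48), and lay 1158 bp after peak 18, which had the third-largest fold. Peak 8 (102777775 to 102778972) had 37 and 16 reads, or 2.58 (1.40 to 4.97). Among the 4 peaks beyond the domain, peak 25 (102854859 to 102856602) had 68 and 24 reads, or 3.16 (1.96 to 5.27), and peak 27 (102886624 to 102887755) had 34 and 14, or 2.71 (1.42 to 5.47). Peak 28, the last of the window (102888440 to 102889259), had 26 and 9, or 3.22 (1.46 to 7.82). The remaining outlying peak, number 26 (102862043 to 102864148), had 76 and 23, or 3.69 (2.29 to 6.16). No member had input of 2 times the chromosome median, and their input ranged from 0.377 to 1.62 times that median. The 12 members not named so far, all in the domain, had folds of 3.35 to 5.24.

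**Figure D2:**
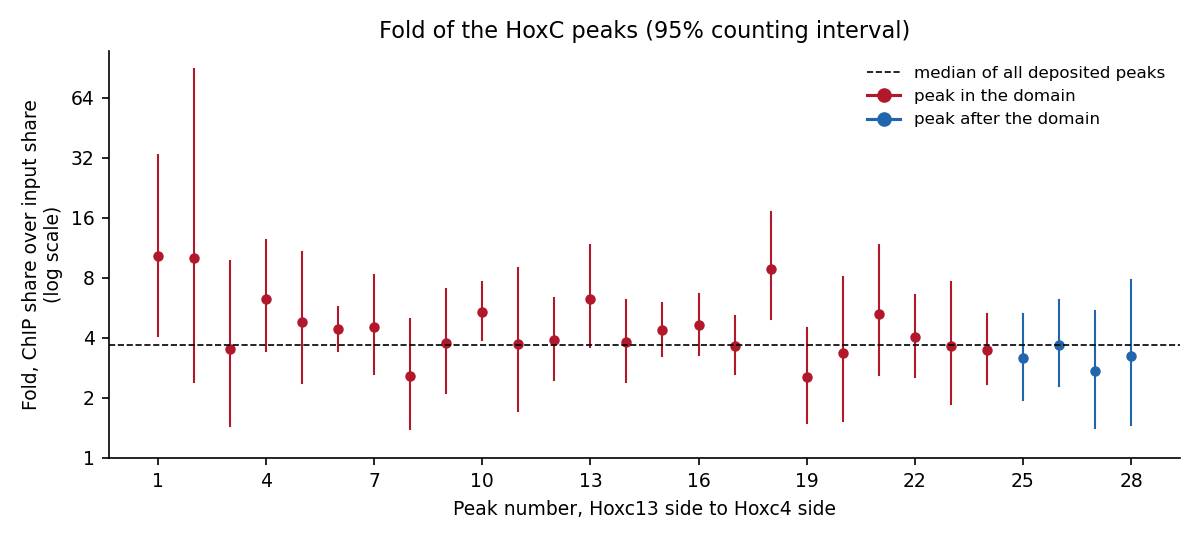
Fold of each of the 28 peaks, ChIP share over input share on a log scale, in order from the Hoxc13 side to the Hoxc4 side, with 95% counting intervals as lines. Peaks 1 and 2 have the highest folds, 10.3 and 10.04, with wide intervals, and the 4 peaks after the domain (blue) lie between 2.71 and 3.69; 3 of them are below the dashed median of all peaks, 3.68.

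Peaks of the domain were separated by 23 gaps of 238 to 6069 bp, with a median of 2127 bp, beside 1388 bp over the 662 gaps of 200 bp to 10 kb tested in the genome. The middles of neighbouring peaks were 4106 bp apart (median). Peaks covered 50.57 kb, 47.5% of the domain. Reads between the peaks were enriched as well, at 1132 ChIP against 600 input reads over 55.91 kb, a fold of 2.10 (1.90 to 2.33). All 23 gaps had a fold above 1, and for 18 the counting interval excluded 1. Of the 22 gaps with enough reads to test, 17 were called at a fold of at least 1.5 (exact two-sided conditional binomial test, adjusted over all gaps), against 52.7% of the 662 gaps tested in the genome. The HoxC gaps held more reads than others, with medians of 69 and 43, which makes a call easier. Their median fold was 2.23, and that of all gaps tested was 2.20.

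Enrichment between the peaks was also found at some distance from them. The stretches of the domain at least 1 kb from any peak, 20.58 kb in all, held 397 ChIP against 217 input reads, or 2.04 (1.73 to 2.42). The same measure was 1.57 (1.30 to 1.90) in the HoxA domain, 1.97 (1.74 to 2.24) in HoxB and 2.30 (1.63 to 3.28) in HoxD. In the genome, bins that touch no peak had a fold of 1.22 (1.21 to 1.24) at 1 to 2 kb from one and 1.10 (1.10 to 1.11) at 2 to 5 kb. Such bins may have a peak on 1 side only, whereas the HoxC stretches have peaks on both sides. Of the 35 domain bins that touch no peak, 34 had a fold above 1, but none was called by the bin test. At an unadjusted p under 0.05, 20 of them passed. Single bins at this depth therefore did not resolve an enrichment that was clear in the gaps as a whole.

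The 5 longest gaps lay mostly at the Hoxc13 end. The longest, gap 2 (102741560 to 102747628, 6069 bp), had 93 ChIP against 62 input reads, giving a fold of 1.67 (1.20 to 2.35; adjusted p = 0.00544, exact test). Gap 7 (102771964 to 102777774) had 122 and 76 reads, or 1.79 (1.33 to 2.42). Gap 5 (102755823 to 102761001) had 91 and 44 reads, or 2.31 (1.59 to 3.39), and gap 4 (102750599 to 102754678) had 86 and 46, or 2.09 (1.44 to 3.05). The only one nearer to the Hoxc4 end, gap 16 (102812034 to 102817060), had the highest fold of the 5, with 111 and 45 reads, or 2.75 (1.93 to 3.98; adjusted p = 2e-07, exact test).

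Short gaps gave the extremes, with few reads. Gap 15, 462 bp between peaks 15 and 16, had 10 ChIP and 2 input reads, a ratio of 5.58 (1.19 to 52.4). Gap 10, between peaks 10 and 11, had 26 and 7 reads, or 4.14 (1.75 to 11.3). Gap 17, which separates peaks 17 and 18, was longer and had 59 and 20 reads, or 3.29 (1.95 to 5.77). The lowest folds were in gap 3 with 5 and 5 reads (1.12, 0.257 to 4.85), in gap 23 with 15 and 13 (1.29, 0.571 to 2.94) and in gap 1 with 25 and 19 (1.47, 0.776 to 2.82). None of these 3 was called. Gaps 6 and 22 were tested and not called either, and gap 9, of 238 bp with 3 reads in all, was not tested.

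**Figure D3:**
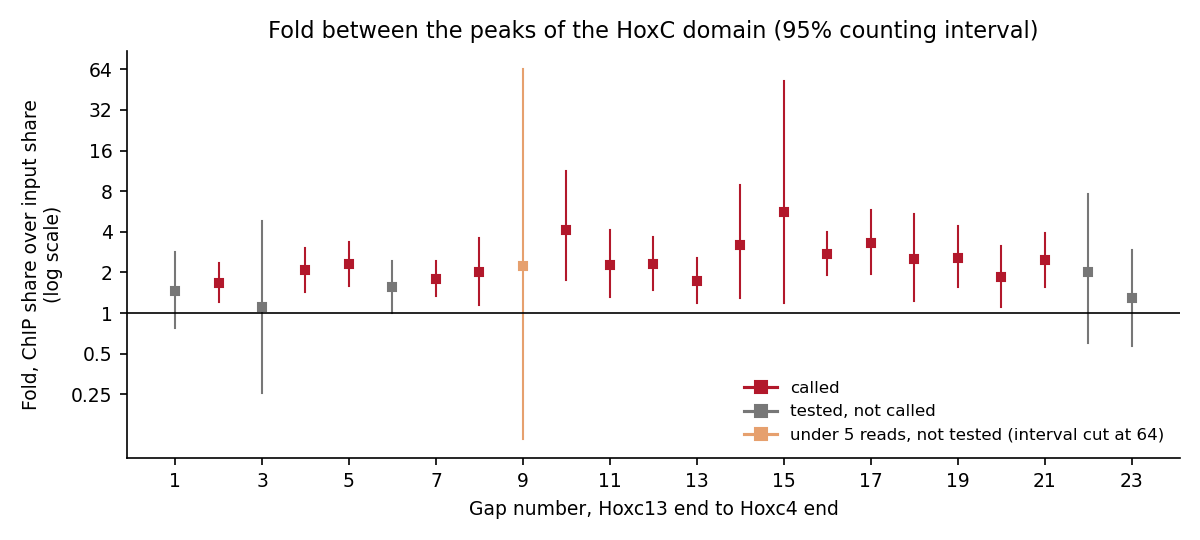
Fold in each of the 23 gaps between peaks of the HoxC domain on a log scale, from the Hoxc13 end to the Hoxc4 end, with 95% counting intervals as lines; called gaps are red. All points lie above 1, and the longest series of called gaps runs from gap 10 to gap 21.

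From the Hoxc13 end to the Hoxc4 end, peak folds tended to be lower and gap folds higher, but neither difference passed its test. The domain was divided at its middle. Peaks on the Hoxc13 side of it (11 peaks, 933 ChIP and 222 input reads) had a fold of 4.69 (4.05 to 5.45). Those on the Hoxc4 side of it (13 peaks, 1272 and 337 reads) had 4.21 (3.73 to 4.76). The ratio was 1.11 (0.918 to 1.35; Fisher's exact test, adjusted p = 0.304 over 9 region pairs). ChIP density in peaks was nearly equal, at 44.7 and 42.8 reads per kb. Gaps had folds of 1.92 (1.67 to 2.20; 582 and 339 reads) and 2.35 (2.03 to 2.74; 550 and 261 reads), a ratio of 0.815 (0.664 to 0.999; adjusted p = 0.145, Fisher's exact test). With runs joined over at most 5 kb the domain shrank to peaks 8 to 16, which leaves out both ends described above. Between the 2 sides of this shorter stretch both ratios had the other direction, 0.940 for peaks and 1.16 for gaps. Divided into 3 stretches of equal length, gap folds were 1.84 (1.55 to 2.19), 2.08 (1.76 to 2.47) and 2.46 (2.05 to 2.96). ChIP density in these gaps was 17.11, 22.12 and 22.05 reads per kb, so it did not rise from the second stretch to the third. Input density was 10.37, 11.84 and 10.02 reads per kb. Peak folds were 4.88 (4.05 to 5.93), 4.38 (3.76 to 5.13) and 4.12 (3.54 to 4.81).

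In segments of 10 kb the fold went up and down along the domain. The first segment had 187 ChIP and 89 input reads, 2.34 (1.81 to 3.05), and the third, which holds peak 6, had 387 and 115, or 3.75 (3.04 to 4.66). The fourth had 244 and 132 reads, 2.06 (1.66 to 2.57), the lowest of the 11 segments. The ninth had the highest fold, with 363 and 99 reads, 4.09 (3.27 to 5.16), and the tenth had 253 and 111, or 2.54 (2.03 to 3.21). Intervals of the fourth and ninth segments did not overlap, but these were picked as the extremes of the 11, and no test between them was run.

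Outside the peaks, the flank on the Hoxc4 side had a higher fold than that on the Hoxc13 side, but the difference did not pass its adjusted test. Within 10 kb before the first peak, outside peaks, 94 ChIP and 109 input reads gave a fold of 0.962 (0.722 to 1.28). Within 10 kb after the last peak of the domain, 159 and 111 reads gave 1.60 (1.25 to 2.05). The ratio was 0.602 (0.410 to 0.884; Fisher's exact test, p = 0.00703, adjusted p = 0.0633 over 9 region pairs). The call depends on that family: adjusted together with the 2 pairs added later, the same exact test gave p = 0.0387. With duplicate reads kept the same exact test was passed, at 0.581 (adjusted p = 0.0303). In the first 1 kb from the edge the folds were close, at 1.49 (0.660 to 3.45) on the Hoxc13 side and 1.71 (0.891 to 3.35) on the Hoxc4 side. The contrast was widest at 1 to 2 kb. There the Hoxc13 side had 9 ChIP and 14 input reads (0.717, 0.274 to 1.78), and the Hoxc4 side had 22 and 9 (2.73, 1.21 to 6.73). At 20 to 30 kb the folds outside peaks were 1.21 (0.937 to 1.55) and 1.42 (1.11 to 1.83). The nearest deposited peak before the domain was 161720 bp away. On the Hoxc4 side, peak 24, the last of the domain (102841978 to 102844382), had 109 and 35 reads, a fold of 3.47 (2.35 to 5.24). The next peak began 10476 bp after it, just beyond the 10 kb allowed within a run, so the end of the domain on this side depends on that limit. The 10 kb flank on this side thus lay between 2 peaks, whereas that on the Hoxc13 side had a peak at 1 end only. The 2 flanks compared above were therefore unlike in their distance from peaks.

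**Figure D4:**
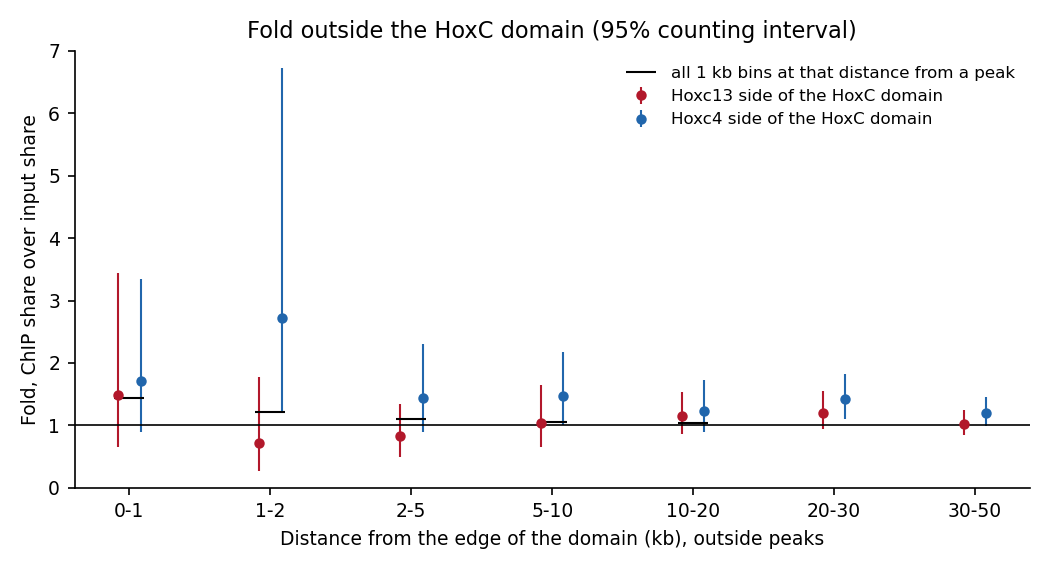
Fold outside peaks by distance in kb from the edge of the HoxC domain, on the Hoxc13 side (red) and the Hoxc4 side (blue), with 95% counting intervals; black dashes give all 1 kb bins of the genome that touch no peak, at that distance from one. Within 10 kb the Hoxc4 side lies above the Hoxc13 side at each distance, and the intervals overlap in each single step. Points are placed by distance from the domain's edge. On the Hoxc4 side, where peaks 25 to 28 follow, they can lie nearer to a peak than the dashes of the same step.

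Set against the domains of the other Hox clusters, HoxC was not told apart in fold. Its peaks, at 4.40 (4.01 to 4.84), lay between those of HoxB, at 3.90 (3.61 to 4.20), and HoxD, at 4.98 (4.45 to 5.58), and beside those of HoxA, at 4.47 (4.09 to 4.89). The ratios of HoxC to HoxA, HoxB and HoxD were 0.985 (0.864 to 1.12), 1.13 (1.001 to 1.28) and 0.884 (0.762 to 1.02), with adjusted p of 0.818, 0.145 and 0.223 by Fisher's exact test. For gaps the ratios were 1.11 (0.936 to 1.31), 1.09 (0.946 to 1.25) and 0.872 (0.713 to 1.07), with an adjusted p of 0.304 for each. A p above the threshold does not show that the clusters are alike, and the intervals give the differences these counts still allow. In layout, peaks covered 47.5% of the HoxC domain, 60.5% of HoxA, 52.9% of HoxB and 64.1% of HoxD. The median gap was 2127 bp in HoxC, 568.5 bp in HoxA, 1122 bp in HoxB and 1092 bp in HoxD. These layouts come from 1 peak list and have no error to test against.

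**Figure D5:**
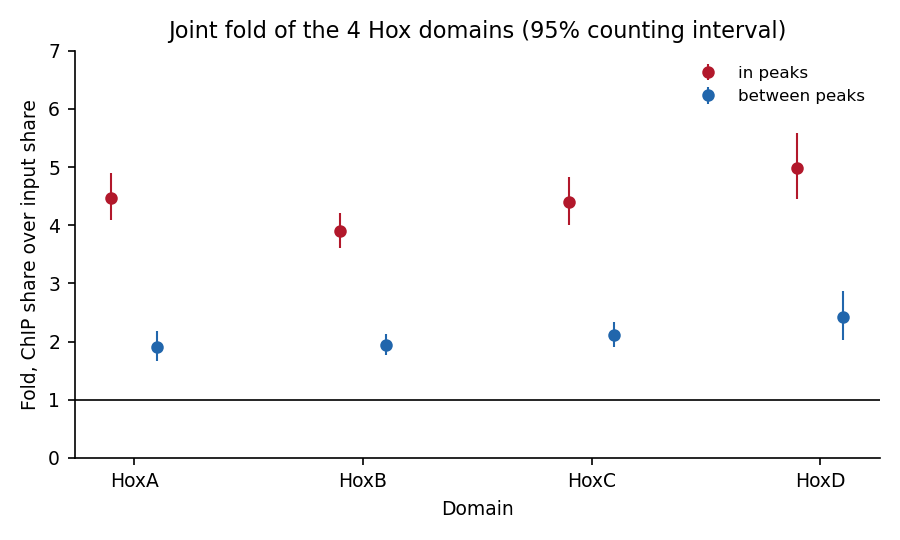
Joint fold in peaks (red) and between peaks (blue) of the HoxA, HoxB, HoxC and HoxD domains, with 95% counting intervals. HoxC, at 4.40 and 2.10, lies within the range of the other domains in both.

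Against the rest of the peak list, a comparison chosen after the planned results were seen, the joint fold of the HoxC domain was higher. The median fold of its 24 peaks was 4.19, beside 3.68 over all peaks. The closer median of 3.84, above, includes the 4 peaks beyond the domain. Peaks outside the 4 Hox domains had a joint fold of 3.54 (3.51 to 3.57), and the ratio of HoxC to them was 1.24 (1.13 to 1.37; Fisher's exact test, adjusted p = 6.42e-06 over 2 pairs). Without the 247 peaks whose input was at least 2 times their chromosome's median, none of which is in HoxC, it was 1.11 (1.01 to 1.22; adjusted p = 0.0354, exact test). Adjusted together with the 9 planned pairs, this restricted peak ratio did not pass (p = 0.107, exact test). Gaps had a ratio of 1.12 (1.01 to 1.24; adjusted p = 0.0349, exact test), which did not pass with duplicate reads kept, at 1.10 (adjusted p = 0.0515), or with runs joined over at most 5 kb, at 1.06 (adjusted p = 0.601). Adjusted together with the 9 planned pairs the gap ratio did not pass either (p = 0.107, exact test). Adjusted over 2 pairs, it passed with gaps trimmed by 200 bp, at 1.147 (adjusted p = 0.0136, exact test). It also passed with reads not shifted, at 1.134 (adjusted p = 0.0155, exact test), and with gaps of at least 1 kb, at 1.155 (adjusted p = 0.0134, exact test). The call on gaps therefore depends on the setting. These p-values count reads only and take peaks within a set as equal, although single folds vary widely, so they are too small.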

How the data were processed

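Per the submitters' processing notes, the authors aligned both libraries to mm8 with Bowtie (version not stated there). They deposited 1 line per read, all 42 bases long. The deposited peak list is labelled as MACS output, per the file headers, and its score per peak was set by the authors and used here only to rank peaks. How the caller was set, whether it used the input and how multiply matching reads were handled is also not given in the sources used here.

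Reads at the same position and strand were counted once. 5′ ends were moved inwards by 54 bp, 0.5 of the input's lag between strands (108 bp). The ChIP lag, 41 bp, lay near the read length and was not used. Fold is the ChIP share of distinct reads over the input share. An input count of 0 was set to 3, which touched no tested feature of the window. Peaks and gaps (200 bp to 10 kb, at least 5 reads) were compared between libraries by a two-sided exact conditional binomial test. Bins of 1 kb with at least 5 reads were tested one-sided. Each test was adjusted (Benjamini-Hochberg) over the whole genome's table and tried on simulated counts. Region pairs used Fisher's exact test, two-sided, with 9 planned pairs adjusted together and 2 added later adjusted on their own. Intervals are exact, at 95%. The HoxC domain is the longest run of member peaks with gaps of at most 10 kb.

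Peaks were named by rule: the ends of the window and of the domain, and the 5 widest, highest-scoring, largest-fold and smallest-fold peaks. Gaps named were the 5 longest and the 3 with the highest and lowest fold. Members, lists and tests were chosen with earlier results of these data known. Alternatives changed the scaling, the shift, the handling of duplicates, bin size and thresholds, the score and read minimum, gap trimming, and run and flank length. Computation used scipy 1.17.1, numpy 2.4.6 and pandas 2.3.3 under Python 3.11.15, with plots by matplotlib 3.10.9.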

Additional observations from a re-analysis of the deposited data

How the results depend on the processing

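No paired analysis was possible because there was 1 library per group. Of 65 alternative values, 56 kept their direction and their side of the threshold, or, for counts, stayed within 1.5 times the reported one and, for folds, inside its counting interval. The 28 called peaks became 13 at a fold of at least 4, and 18 when only peaks at or above the median authors' score were counted, since 18 members stand there. The 42 called bins became 25 with bins of 500 bp, which hold fewer reads each. The flank ratio of 0.602 was 0.581 and passed its test with duplicates kept. With runs joined over at most 5 kb, 3 ratios that had not passed changed direction. HoxC against HoxB gaps went to 0.929, the peak ratio of the domain's 2 sides to 0.940 and their gap ratio to 1.16. The cause was not tested. The HoxC domain then held 9 peaks, 8 to 16, so its 2 sides were other regions than in the main comparison. The ratio of HoxC gaps to all other gaps no longer passed with duplicates kept (1.10) or with runs joined over at most 5 kb (1.06). Scaling by reads far from peaks changed the ratio of library totals by a factor of 0.986 and no call count.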
